A study of Mus musculus with 8 samples.

Results

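The genes of ISG15 and FAT10 conjugation were examined in RNA of intestinal epithelial cells, the cell layer that lines the bowel, taken from the mouse colon. The members were chosen by gene name and role. They are the modifiers Isg15 and Ubd (which encodes FAT10), the activating enzymes Uba7 and Uba6, the conjugating enzyme Ube2l6, the ligase Herc6 and the protease Usp18. All 7 were found among the 55487 genes of the deposited table. The series compared 4 libraries from mice labelled PIM1+/- with 4 from wild type (WT) mice, both of the strain C57BL/6J. Pim1 encodes a serine/threonine kinase, and PIM1+/- names a heterozygous genotype of it. The labels used here give no age, sex, treatment or structure of the allele, and do not state that the libraries came from separate animals. The p-values therefore measure the spread between these libraries, which may be technical.

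Ubiquitin-like modifiers are small proteins that are joined to other proteins through a relay of enzymes. An activating enzyme (E1) charges the modifier, a conjugating enzyme (E2) carries it, and a ligase (E3) passes it to the target. Interferons induce ISG15, its E1 Uba7 (also called UBE1L), its E2 Ube2l6 (UBCH8) and its main mouse ligase Herc6, as well as Usp18, which takes ISG15 off its targets and also dampens signalling from the type I interferon receptor. FAT10 is induced by interferon gamma and tumour necrosis factor, and proteins that carry it are sent to the proteasome. Its E1, Uba6, also activates ubiquitin and is made in most tissues. In the gut, such interferon-induced genes belong to the defence of the epithelium against viruses and bacteria.

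The stretches of DNA before the start of both modifier genes are shown because they carry the motifs that a search of the members' promoters found. The search covered 250 bases before to 50 bases after the start of each gene, on both strands, in RefSeq windows of build GRCm38.p6, which held 5 of the 7 members (Isg15, Uba7, Ube2l6, Herc6 and Ubd). It used the interferon-stimulated response element (ISRE, GAAANNGAAA), the gamma-activated sequence (GAS, TTCNNNGAA) and the kappaB motif. The 250 bases before the start are printed 5′ to 3′, with the ISRE letters in capitals for Isg15 (chr4:156200819-156201068, minus strand) and the kappaB letters in capitals for Ubd (chr17:37193642-37193891, plus strand).
Isg15: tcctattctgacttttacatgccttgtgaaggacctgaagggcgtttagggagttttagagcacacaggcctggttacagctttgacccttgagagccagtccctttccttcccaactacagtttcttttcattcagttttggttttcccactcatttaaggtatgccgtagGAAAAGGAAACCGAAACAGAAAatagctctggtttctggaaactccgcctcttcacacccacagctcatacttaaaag
Ubd: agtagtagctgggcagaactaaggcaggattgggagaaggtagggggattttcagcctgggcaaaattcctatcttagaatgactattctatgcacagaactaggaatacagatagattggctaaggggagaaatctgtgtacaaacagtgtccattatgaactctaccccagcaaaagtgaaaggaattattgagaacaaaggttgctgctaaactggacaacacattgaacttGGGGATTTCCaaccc
In Isg15, 3 overlapping ISRE matches ran from 78 to 57 bases before the start. In Ubd, 1 kappaB match lay 15 to 6 bases before the start. The windows of Uba7, Ube2l6 and Herc6 held none of these letters. Among 32851 windows of the same length, 3.44% held the ISRE letters, 8.30% the GAS letters and 8.46% the kappaB letters. A match describes the letters and is not evidence of a bound site.

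Values are in TPM, transcript abundance per gene length scaled to a fixed sum per library, so levels can be set beside each other between genes. A log2 fold change compares PIM1+/- with WT, carries its SE, and was computed after 1 was added to each TPM, which makes the change of low genes look smaller. Adjusted p-values come from limma over 12760 tested genes (Benjamini-Hochberg), and a gene was called where this p was under 0.05. The read depth cannot be had from TPM and is unknown. In each library 12582 to 12850 genes reached 1 TPM. Pim1 itself was listed at 7.97, 7.23, 5.64 and 5.84 TPM in the PIM1+/- libraries, against 8.79, 7.86, 5.72 and 8.83 TPM in the WT libraries. The ranges overlapped, and the log2 fold change of -0.19 ± 0.15 did not pass the test (limma adjusted p = 0.411), so the level of Pim1 RNA does not check the genotype labels.

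All 7 members passed the filter of at least 1 TPM in at least 4 libraries, and each reached 1 TPM in every library. Of the 7, 6 were higher in PIM1+/- cells, 0 were lower and 1, Uba6, did not pass the test. Over all tested genes, 8.93% were called higher (1139 genes) and 8.54% lower (1090 genes). That split moved to 893 higher and 1540 lower with upper quartile scaling, and to 856 higher and 1564 lower after rescaling without mitochondrial genes, and the same 6 members were called under both. The same 6 members had no overlap between the genotypes, against 23.5% of all tested genes. The median log2 fold change was 1.85 over the members and -0.01 over all tested genes. In bulk RNA, a change in the make-up of the cells and a change of RNA per cell cannot be told apart.

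Isg15 (ENSMUSG00000035692, chr4:156199424-156200818, minus strand), the modifier itself, was listed at 405, 246, 180 and 248 TPM in the PIM1+/- libraries, against 14.0, 24.2, 12.9 and 27.8 TPM in the WT libraries. Every PIM1+/- library lay far above every WT library, and PIM1+/- replicate 1 was the highest of all. The mean was 269.9 ± 95.6 TPM in PIM1+/- cells and 19.7 ± 7.42 TPM in WT cells (SD, n = 4 each), a 13.7-fold ratio, and the log2 fold change was 3.72 ± 0.29 (limma adjusted p = 8.32e-05). It ranked 13 among the 12760 tested genes by log2 fold change. By mean level, Isg15 stood at percentile 96.5 of the tested genes in PIM1+/- cells and at percentile 60.1 in WT cells. Its transcript matched 1 other gene over 482 of 756 bases at 95.2% identity. That gene averaged 0.42 TPM over the 8 libraries.

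Ubd (ENSMUSG00000035186, chr17:37193892-37196095, plus strand), the gene of FAT10, was listed at 5.88, 4.73, 9.17 and 8.11 TPM in the PIM1+/- libraries, against 1.87, 1.91, 1.52 and 2.53 TPM in the WT libraries. The genotypes did not overlap, and here PIM1+/- replicates 3 and 4 were the high ones, not replicate 1. The mean was 6.97 ± 2.03 TPM in PIM1+/- cells and 1.96 ± 0.420 TPM in WT cells (SD, n = 4 each), a ratio of 3.56, with a log2 fold change of 1.40 ± 0.19 (limma adjusted p = 0.00175). Ubd was a low transcript in both genotypes, at percentile 32.6 of the tested genes in PIM1+/- cells and 9.75 in WT cells.

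**Figure D1:**
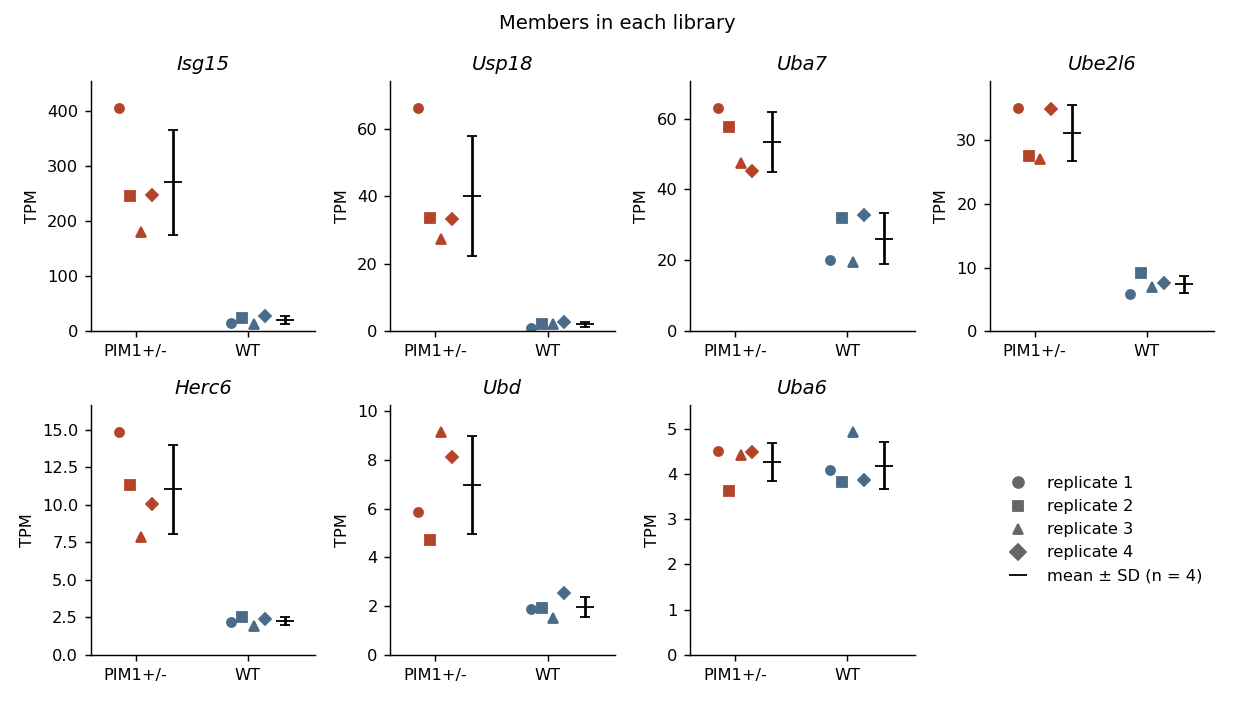
TPM of each of the 7 members in every library, with PIM1+/- left of WT; each point is 1 library and the black mark is the mean ± SD (n = 4). For Isg15 the PIM1+/- libraries lie between 180 and 405 TPM and the WT libraries between 12.9 and 27.8 TPM, while for Uba6 both genotypes lie between 3.63 and 4.94 TPM.

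Among 13 modifier genes set side by side, 4 of them ubiquitin genes, Isg15 made up 3.39% to 7.47% of their summed TPM in the PIM1+/- libraries and 0.251% to 0.567% in the WT libraries. By mean level it stood in place 6 of the 13 in PIM1+/- cells and in place 11 in WT cells. In PIM1+/- cells it was thus above Nedd8 (158 ± 10.1 TPM) and Sumo2 (139 ± 5.41 TPM), the modifiers of cullin ligases and of sumoylation, and in WT cells it was below both (145 ± 12.5 TPM for Nedd8 and 146 ± 15.7 TPM for Sumo2). RNA of the ubiquitin gene Ubb alone was listed at 995 ± 27.0 TPM in PIM1+/- cells and 916 ± 29.3 TPM in WT cells. Ubd was in the last of the 13 places in both genotypes, at 0.0862% to 0.172% of the sum in PIM1+/- libraries and 0.0296% to 0.0516% in WT libraries. These 13 genes were put together after values had been seen, and the shares and places describe this set only. Its largest entry, Fau, held 22.8% to 25.5% of the sum in PIM1+/- libraries and 25.3% to 26.9% in WT libraries. The ATG8 and ATG12 modifiers of autophagy were left out. The highest of those, Gabarap, averaged 273 ± 13.0 TPM in PIM1+/- cells, above the mean of Isg15, and 260 ± 18.3 TPM in WT cells.

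Uba7 (ENSMUSG00000032596, chr9:107975505-107984060, plus strand), the E1 of ISG15, was listed at 63.0, 57.7, 47.6 and 45.1 TPM in the PIM1+/- libraries, against 20.2, 32, 19.5 and 32.9 TPM in the WT libraries. The genotypes did not overlap, but the gap was narrower than for Isg15. WT replicates 2 and 4 stood apart from WT replicates 1 and 3. The mean was 53.3 ± 8.43 TPM in PIM1+/- cells and 26.1 ± 7.29 TPM in WT cells (SD, n = 4 each), a ratio of 2.04, and the log2 fold change was 1.03 ± 0.19 (limma adjusted p = 0.00702). It was the smallest change among the 6 members that rose, and Uba7 was the highest member in WT cells by mean TPM.

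Uba6 (ENSMUSG00000035898, chr5:86109287-86172803, minus strand), which activates FAT10 and ubiquitin, was listed at 4.51, 3.63, 4.43 and 4.49 TPM in the PIM1+/- libraries, against 4.09, 3.83, 4.94 and 3.86 TPM in the WT libraries. Its ranges overlapped, with both the lowest value in a PIM1+/- library and the highest in a WT library. The log2 fold change was 0.02 ± 0.11, with a 95% interval of -0.22 to 0.27 (limma adjusted p = 0.900). Among the 10 activating-enzyme genes, only Mocs3, which activates the modifier URM1, had a mean in PIM1+/- cells below that of Uba6 (3.83 ± 1.02 TPM, against 4.61 ± 0.764 TPM in WT cells). Uba1, the main E1 of ubiquitin, averaged 134 ± 6.34 TPM in PIM1+/- cells and 119 ± 1.75 TPM in WT cells, with a log2 fold change of 0.18 ± 0.05 (limma adjusted p = 0.0346). That call was lost under both other scalings of the libraries (limma adjusted p = 0.0906 and 0.104) and without any 1 library other than PIM1+/- replicate 3 (limma adjusted p = 0.0552 to 0.0814). The other 7 listed E1 genes did not pass the test.

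Ube2l6 (ENSMUSG00000027078, chr2:84798828-84810335, plus strand), the E2 of ISG15, was listed at 35.1, 27.6, 27.1 and 34.9 TPM in the PIM1+/- libraries, against 5.82, 9.09, 6.93 and 7.58 TPM in the WT libraries. The lowest PIM1+/- library was far above the highest WT library. The log2 fold change was 1.95 ± 0.14 (limma adjusted p = 4.42e-05), the smallest adjusted p of the members, and the ratio of means was 4.24. Its transcripts matched 13 other genes over stretches of up to 508 bases at 90% identity or more. The highest of those genes, Ift46, averaged 24.8 TPM, and how reads shared with Ube2l6 were divided is not given in the labels.

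Herc6 (ENSMUSG00000029798, chr6:57581000-57664632, plus strand), the ligase, was listed at 14.9, 11.3, 7.83 and 10.1 TPM in the PIM1+/- libraries, against 2.21, 2.54, 1.95 and 2.36 TPM in the WT libraries. The WT libraries lay close together and all 4 PIM1+/- libraries were well above them. The log2 fold change was 1.85 ± 0.17 (limma adjusted p = 0.000176), with a ratio of means of 4.87. The gene model Gm45193 shares 1269 of the 9292 exon bases of Herc6 on the same strand. Gm45193 was listed at 2.07, 1.11, 0.58 and 1.16 TPM in the PIM1+/- libraries, against 0.16, 0.26, 0 and 0.08 TPM in the WT libraries. Its genotypes did not overlap either, and how reads shared with Herc6 were divided is not given in the labels.

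Usp18 (ENSMUSG00000030107, chr6:121245906-121270917, plus strand), the ISG15 protease, was listed at 66.2, 33.6, 27.2 and 33.1 TPM in the PIM1+/- libraries, against 1.07, 2.23, 2.16 and 2.65 TPM in the WT libraries. The genotypes were far apart, and PIM1+/- replicate 1 stood well above the other PIM1+/- libraries. The mean was 40.0 ± 17.7 TPM in PIM1+/- cells and 2.03 ± 0.674 TPM in WT cells (SD, n = 4 each). The ratio of means, 19.7, was the largest of the members, and the log2 fold change was 3.71 ± 0.27 (limma adjusted p = 5.50e-05). An antisense RNA, Gm44148, covers 124 exon bases of Usp18 and was listed at 0 to 1.2 TPM. No source used here gives the strand setting of the counting, so reads of this pair cannot be told apart.

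**Figure D2:**
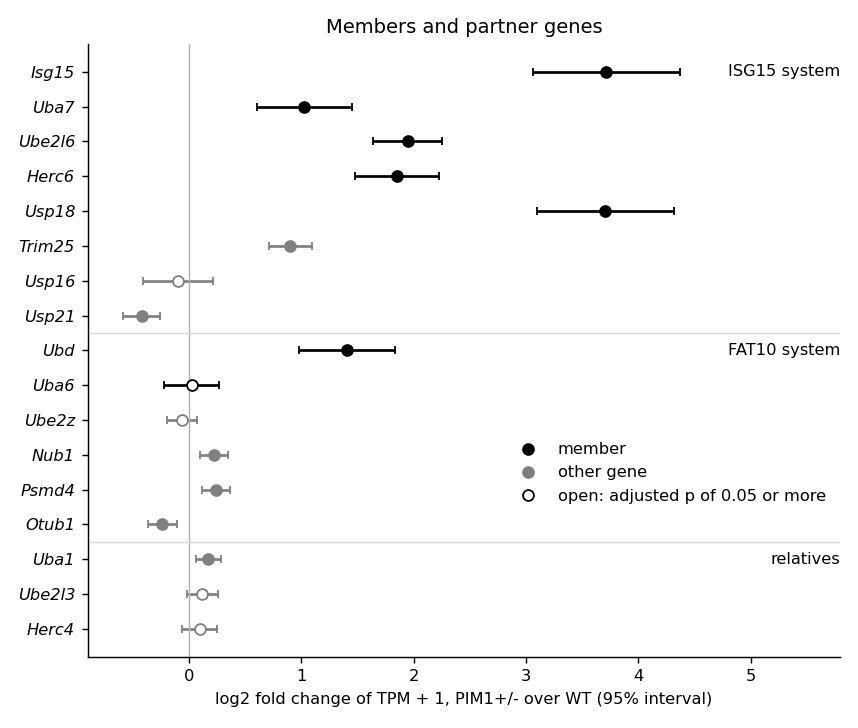
Log2 fold change of TPM + 1 (PIM1+/- over WT) with its 95% interval for the 7 members and for partner genes of both pathways; filled points passed the limma threshold of 0.05 and open points did not. Isg15 (3.72) and Usp18 (3.71) lie farthest to the right, Ube2l6, Herc6, Ubd and Uba7 lie between 1.03 and 1.95, and Uba6 lies at 0.02.

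In PIM1+/- cells the members ran, by mean TPM, from Isg15 through Uba7, Usp18, Ube2l6, Herc6 and Ubd to Uba6. Uba7 and Usp18, Usp18 and Ube2l6, and Herc6 and Ubd were neighbours whose library values overlapped, while Isg15 lay above all the others. In WT cells the order was Uba7, Isg15, Ube2l6, Uba6, Herc6, Usp18 and Ubd. There Uba7 overlapped with Isg15, and the values of Herc6, Usp18 and Ubd overlapped from neighbour to neighbour. Uba6 was thus last in PIM1+/- cells and ahead of 3 other members in WT cells. Among the PIM1+/- libraries, replicate 1 held the highest value of 6 members, and replicate 3 that of Ubd. Among the WT libraries, replicate 4 held the highest value of 4 members (Isg15, Usp18, Uba7 and Ubd), and replicate 3 the lowest of 4 (Isg15, Uba7, Herc6 and Ubd).

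Within a library, a ratio of 2 genes does not move with the scaling of that library except through the pseudocount. Of 6 ratios of log2(TPM + 1), 5 differed between the genotypes by an exact two-sided permutation test over the 8 libraries. The pairs were chosen with earlier results of these data known. Each difference equals the gap between the log2 fold changes of its 2 genes, so the 5 are not separate support for those changes. For each of the 5, p was 0.0286, the smallest that 4 against 4 libraries allow, and 0.0343 after Benjamini-Hochberg adjustment over the 6. With any 1 library left out the 5 kept their direction but could no longer pass, since 3 against 4 libraries allow an exact p of 0.0571 at the smallest, which all 5 reached (0.0686 adjusted). Isg15 stood at 6.43, 4.27, 3.79 and 5.49 times Uba7 in the PIM1+/- libraries, against 0.696, 0.757, 0.659 and 0.846 times in the WT libraries. RNA of the modifier was above that of its E1 in all 4 PIM1+/- libraries and below it in all 4 WT libraries. The log2 ratio differed by 2.69. Ubd stood at 1.30, 1.30, 2.07 and 1.81 times Uba6 in the PIM1+/- libraries, against 0.457, 0.499, 0.308 and 0.655 times in the WT libraries. FAT10 RNA was above that of its E1 in all 4 PIM1+/- libraries and below it in all 4 WT libraries, with a difference of 1.38 in the log2 ratio. Uba7 stood at 10.1 to 15.9 times Uba6 in PIM1+/- libraries and 3.95 to 8.52 times in WT libraries, a difference of 1.0 in the log2 ratio.

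For Isg15 and its protease Usp18, no difference beyond the spread between libraries was found. Isg15 stood at 6.12, 7.31, 6.63 and 7.49 times Usp18 in the PIM1+/- libraries, against 13.1, 10.9, 5.95 and 10.5 times in the WT libraries. The ranges overlapped, with WT replicate 3 the lowest. The log2(TPM + 1) ratio averaged 2.75 ± 0.127 in PIM1+/- cells and 2.73 ± 0.405 in WT cells (SD, n = 4 each), a difference of 0.01 (exact permutation p = 0.971, adjusted 0.971). With a pseudocount of 0.1 the difference was -0.43 (exact permutation p adjusted over the 6 = 0.143), since Usp18 lay near 2 TPM in WT cells. The test missing its threshold does not show that both genes changed alike.

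The E2 and the ligase were also set beside a family member that serves ubiquitin. Ube2l3 (UBCH7), a close relative of Ube2l6, was listed at 95.8, 83.8, 87.5 and 90.7 TPM in the PIM1+/- libraries, against 79.4, 88.4, 83.3 and 78.1 TPM in the WT libraries. Its log2 fold change of 0.12 ± 0.06 did not pass the test (limma adjusted p = 0.209). Ube2l6 stood at 0.310 to 0.385 times Ube2l3 in PIM1+/- libraries and 0.0733 to 0.103 times in WT libraries, a difference of 1.83 in the log2 ratio. Herc4, another HERC ligase, averaged 28.5 ± 2.11 TPM in PIM1+/- cells and 26.6 ± 1.14 TPM in WT cells, and its log2 fold change of 0.10 ± 0.07 did not pass (limma adjusted p = 0.366). Herc6 stood at 0.261 to 0.490 times Herc4 in PIM1+/- libraries and 0.0778 to 0.0915 times in WT libraries, a difference of 1.75. These are the last of the 5 ratios that differed.

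**Figure D3:**
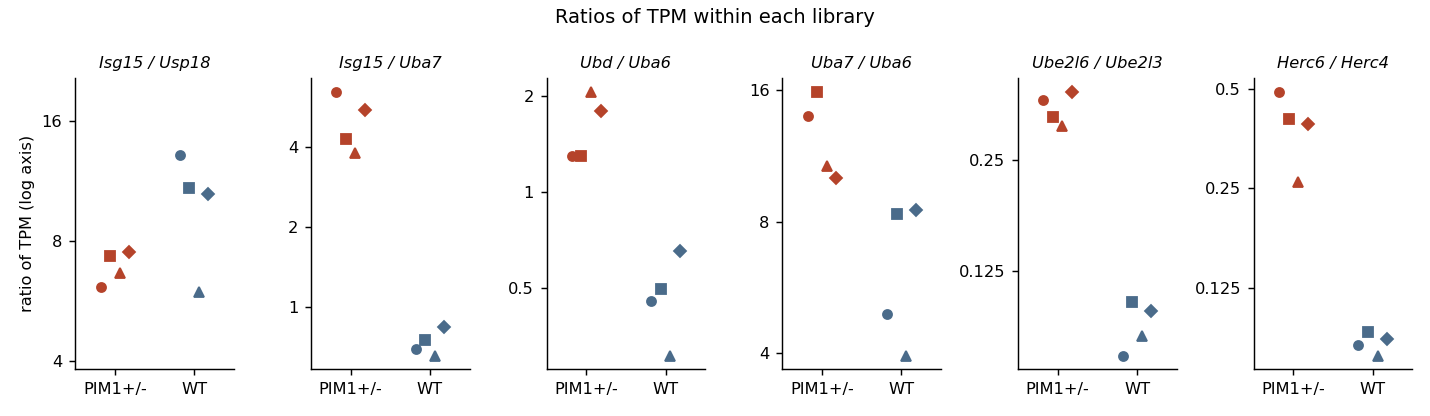
Ratios of TPM within each library on a log axis for the 6 pairs, PIM1+/- left of WT, each point 1 library. The ratio of Isg15 to Usp18 overlaps between the genotypes (6.12 to 7.49 in PIM1+/- and 5.95 to 13.1 in WT), and the other 5 ratios do not overlap.

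RNA of other proteins that act with ISG15 or remove it was measured as well. Of 9 listed ISG15 partners 8 were tested, 1 was higher and 1 lower, with a median log2 fold change of 0.08, and Usp13 was below the filter. Trim25, which in human cells can ligate ISG15 and ligates ubiquitin in antiviral sensing, was listed at 61.3, 49.0, 48.9 and 47.6 TPM in the PIM1+/- libraries, against 27.8, 27.4, 25.4 and 27.4 TPM in the WT libraries. The genotypes did not overlap, and its log2 fold change was 0.90 ± 0.08 (limma adjusted p = 0.000227). Usp21, a deubiquitinase that in human cells can also cleave ISG15, averaged 13.0 ± 1.07 TPM in PIM1+/- cells and 17.7 ± 0.648 TPM in WT cells and fell by 0.42 on the log2 scale (SE 0.07, limma adjusted p = 0.00607). Usp16, another such protease, averaged 38.1 ± 5.59 TPM in PIM1+/- cells and 40.9 ± 6.80 TPM in WT cells and did not pass the test (-0.09 ± 0.14, limma adjusted p = 0.679).

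Of 8 listed FAT10 partners 7 were tested, 2 were higher and 1 lower, with a median log2 fold change of -0.06, and Aipl1 was below the filter. Nub1, which speeds the degradation of FAT10, averaged 26.2 ± 1.11 TPM in PIM1+/- cells and 22.3 ± 0.465 TPM in WT cells (log2 fold change 0.23 ± 0.06, limma adjusted p = 0.0254). Psmd4, a ubiquitin receptor of the proteasome, had a log2 fold change of 0.24 ± 0.06 (limma adjusted p = 0.0200), and Otub1, a deubiquitinase, one of -0.24 ± 0.06 (limma adjusted p = 0.0247). Each of the 3 calls depended on single libraries. That of Psmd4 was lost without WT replicate 1 or 4 (limma adjusted p = 0.0562 and 0.0561), and that of Otub1 without PIM1+/- replicate 3 or WT replicate 1, 3 or 4 (0.0505 to 0.0649). That of Nub1 was lost without any 1 library other than PIM1+/- replicate 1 and WT replicate 2 (0.0508 to 0.0785) and under both other scalings (limma adjusted p = 0.0730 and 0.0763). Ube2z, the E2 that works with Uba6, averaged 28.1 ± 1.61 TPM in PIM1+/- cells and 29.2 ± 0.830 TPM in WT cells and did not pass the test (-0.06 ± 0.06, limma adjusted p = 0.537).

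The other ubiquitin-like systems were read from lists of their genes. Without the members, 103 genes of these lists were in the table and 101 were tested. Of the 101, 6 were higher and 7 lower, or 5.94% and 6.93%, with a median log2 fold change of 0.03, against 8.93% and 8.54% of all tested genes. These shares lie near those of all genes and mark nothing out about the lists. The 6 became 3 under either other scaling, 3 without PIM1+/- replicate 4 or WT replicate 3, and 2 without WT replicate 1 or 4. Their log2 fold changes ran from -0.71 for Ube2j2 to 0.90 for Trim25, so all 6 members that rose had larger ones. Of 15 SUMO genes 1 passed, Pias2, a SUMO ligase, which fell by 0.46 (SE 0.10, limma adjusted p = 0.0149). Of 10 NEDD8 genes 1 passed, Ube2m, the NEDD8 E2, with 0.28 ± 0.07 (limma adjusted p = 0.0298). It missed the threshold under the other scalings (0.0524 and 0.0567) and without PIM1+/- replicate 4 or WT replicate 1, 3 or 4 (0.0577 to 0.0724). Of 14 ATG8 and ATG12 genes of autophagy 2 passed, Map1lc3a and Gabarapl1, which fell by 0.34 and 0.32 (SE 0.06 and 0.09, limma adjusted p = 0.00677 and 0.0476). The call of Gabarapl1 was lost without any 1 library other than PIM1+/- replicate 4 (limma adjusted p = 0.0516 to 0.119). None of the 7 UFM1 genes, the 4 ubiquitin genes or the 4 other HERC genes passed in limma. Of 30 E2 genes of the Ube2 family 2 were higher, Ube2a (0.34 ± 0.08, limma adjusted p = 0.0166) and Ube2m, and 2 lower, Ube2j2 and Ube2r2 (-0.71 ± 0.13 and -0.44 ± 0.07). Ube2j2, an E2 of the endoplasmic reticulum, averaged 44.0 ± 2.06 TPM in PIM1+/- cells and 73.9 ± 14.8 TPM in WT cells.

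**Figure D4:**
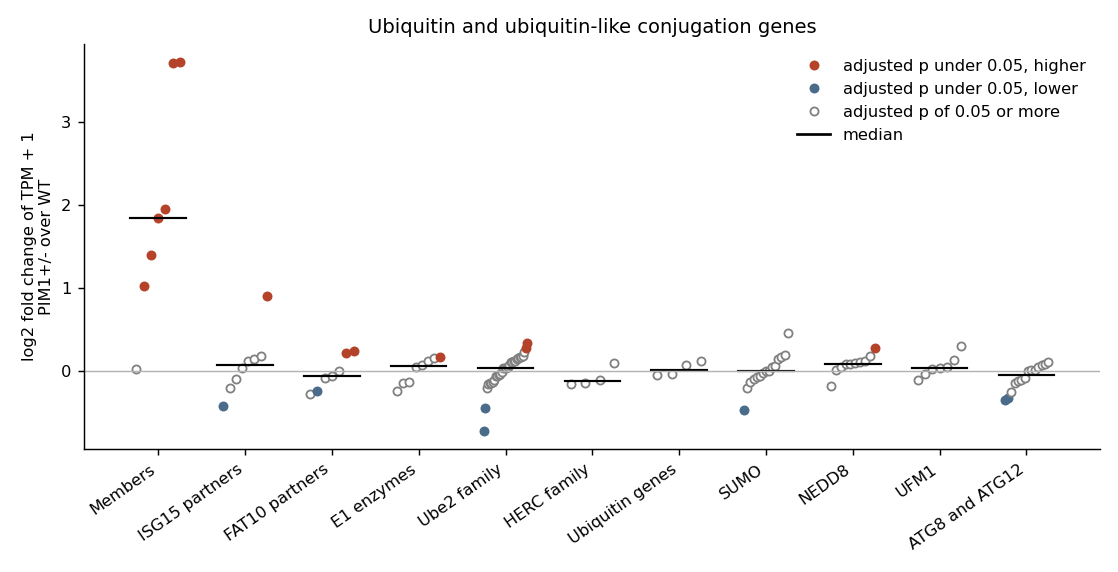
Log2 fold change of TPM + 1 (PIM1+/- over WT) of every tested gene of each conjugation system, sorted within a system; filled points passed the limma threshold of 0.05 and the black line is the median of the system. The median of the 7 members is 1.85, and the medians of the other systems lie between -0.12 and 0.09.

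Most genes of the inducers were at or near 0 in the RNA, and several of the factors downstream of their receptors were higher. Ifna1, Ifna2, Ifna4, Ifnb1, Ifnl2 and Ifnl3, which encode type I and type III interferons, were listed at 0 in all 8 libraries. Ifng, the interferon gamma gene, was below the filter, at 0.35, 0.48, 1.96 and 0.73 TPM in the PIM1+/- libraries, against 0.53, 1.02, 0.27 and 0.84 TPM in the WT libraries, and the ranges overlapped. Tnf was listed at 5.85, 2.93, 2.57 and 4.81 TPM in the PIM1+/- libraries, against 1.6, 1.39, 1.81 and 1.38 TPM in the WT libraries. The genotypes did not overlap, and Tnf was higher in PIM1+/- cells (0.94 ± 0.21, limma adjusted p = 0.0153, and 0.0547 with no filter on low genes). Of 11 interferon receptor and transcription factor genes 5 were higher and 1 lower, with a median log2 fold change of 0.38. Stat2 and Irf9, parts of the factor that binds the ISRE, had log2 fold changes of 1.67 and 1.55. Those of Irf7, which amplifies interferon responses, and of Irf1, an activator of interferon gamma targets, were 2.48 and 0.51. Ifngr1, a chain of the interferon gamma receptor, had -0.18, a call lost without PIM1+/- replicate 2 or 4 or WT replicate 1, 2 or 4 (limma adjusted p = 0.0527 to 0.0872).

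The genes nearest to each modifier in pattern were sought among all other tested genes by the root mean square difference of centred log2(TPM + 1) over the 8 libraries. Centring was over both genotypes together, so the distance keeps the genotype difference and favours genes with a like fold change. The log2 fold change was 1.40 for both Ubd and H2-Q10, and 3.71 for Usp18 against 3.72 for Isg15. A small distance therefore does not show that 2 genes vary together within a genotype. For Isg15 these were Apol9b (0.14), Apol9a (0.19) and Oas3 (0.20), and Usp18 came in place 4 (0.26). Apol9a and Apol9b are near copies of each other, so their values share reads by estimation. Oas3, an interferon-induced sensor of double-stranded RNA, averaged 42.5 ± 9.73 TPM in PIM1+/- cells and 2.19 ± 0.743 TPM in WT cells. For Ubd the nearest 3 included H2-Q10 (0.16) and Ntrk2 (0.23). H2-Q10, a class I histocompatibility gene of a family with similar copies, averaged 21.1 ± 3.90 TPM in PIM1+/- cells and 7.26 ± 0.859 TPM in WT cells. Places 4 to 10 held Nkg7, Crlf2, Cd8a, H2-K1, Lpo, Irf9 and Tnfsf13b, at nearly equal distances (0.25 to 0.27). Among these, Nkg7 and Cd8a are genes of cytotoxic lymphocytes that passed the filter only with the PIM1+/- libraries. Irf9 is part of the factor that binds the ISRE. All of them were outside the 3 taken and were named after their values were seen. Among the members, Ube2l6 and Herc6 were the nearest pair (0.21), followed by Isg15 and Usp18 (0.26).

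Markers of other cell types were mostly present at low levels, and some of them, from the T and NK cell and macrophage lists, also differed between the genotypes. Of 9 epithelial markers 7 were higher, against 8.93% of all tested genes. The epithelial marker Epcam was listed at 1199 to 1402 TPM in PIM1+/- libraries and 1177 to 1283 TPM in WT libraries. The summed TPM of 13 T and NK cell markers was 41.9 to 104 in PIM1+/- libraries and 10.8 to 24.4 in WT libraries, and 7 of the 9 tested ones were higher. A large part of this sum was Ccl5 alone, at 17.2 to 51.5 TPM in PIM1+/- libraries and 3.68 to 10.8 TPM in WT libraries. Of 14 macrophage and dendritic cell markers, with sums of 9.04 to 11.98 TPM in PIM1+/- libraries and 2.01 to 4.78 TPM in WT libraries, 2 were tested and 1, C1qa, was higher. For Cd3e, Cd8a, Nkg7, Gzmb and C1qa not every WT library reached 1 TPM, so they passed the filter only with the PIM1+/- libraries. Markers low in both genotypes were not tested, so the counts of tested T, NK and macrophage markers lean towards higher. The sums of 7 B and plasma cell markers overlapped, at 8.28 to 13.5 TPM in PIM1+/- libraries and 4.28 to 14.5 TPM in WT libraries. Fibroblast markers summed to 0.21 to 2.17 TPM in PIM1+/- libraries and 0.27 to 0.63 TPM in WT libraries, and endothelial markers to 3.22 to 4.20 TPM in PIM1+/- libraries and 3.55 to 5.76 TPM in WT libraries. None of the 5 fibroblast markers and 2 of the 5 endothelial markers were tested, and neither of these 2 was called in limma (adjusted p under 0.05). No marker of these lists was at 0 in all libraries. Among T cell genes, Cd3e was at 1.51 to 3.56 TPM in PIM1+/- libraries and 0.73 to 1.19 TPM in WT libraries, and Gzmb, a granule protease of cytotoxic lymphocytes, at 4.60 to 7.56 TPM in PIM1+/- libraries and 0.43 to 1.18 TPM in WT libraries.

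A score, the mean of 13 of these immune markers on the log2 scale after centring, was 0.573, 0.160, 0.752 and 0.715 in the PIM1+/- libraries, against -0.550, -0.438, -0.893 and -0.320 in the WT libraries. The 13 were the T and NK, macrophage and dendritic, and B and plasma cell markers that passed the filter. Several passed it only with the PIM1+/- libraries, so the score was in part chosen to be high there. Only for Ubd did the order of the libraries equal that of the score within both genotypes. For Isg15 and Uba7 it did so within WT alone, and for the other 4 members within neither. The match of Ubd within WT rests on 1.87 against 1.91 TPM in replicates 1 and 2. How many of all tested genes match the score in this way was not counted, so these orders do not mark Ubd out. The score and the genotype had a correlation of 0.926 over the 8 libraries, so genotype and score can hardly be told apart. In a fit with both no gene was called in limma, with 1014 genes at an unadjusted p under 0.05 against 4132 without the score. The fold changes with the score in the fit were 3.68 ± 0.76 for Usp18 (limma adjusted p = 0.273), 2.98 ± 0.76 for Isg15 (0.394), 1.97 ± 0.46 for Herc6 (0.340), 1.61 ± 0.36 for Ube2l6 (0.305), 0.66 ± 0.51 for Uba7 (0.781) and 0.26 ± 0.32 for Ubd (0.869). All 6 SEs were larger than without the score, and with genotype and score this closely tied these values do not sort the members. The part of other cells in these differences was not tested further.

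**Figure D5:**
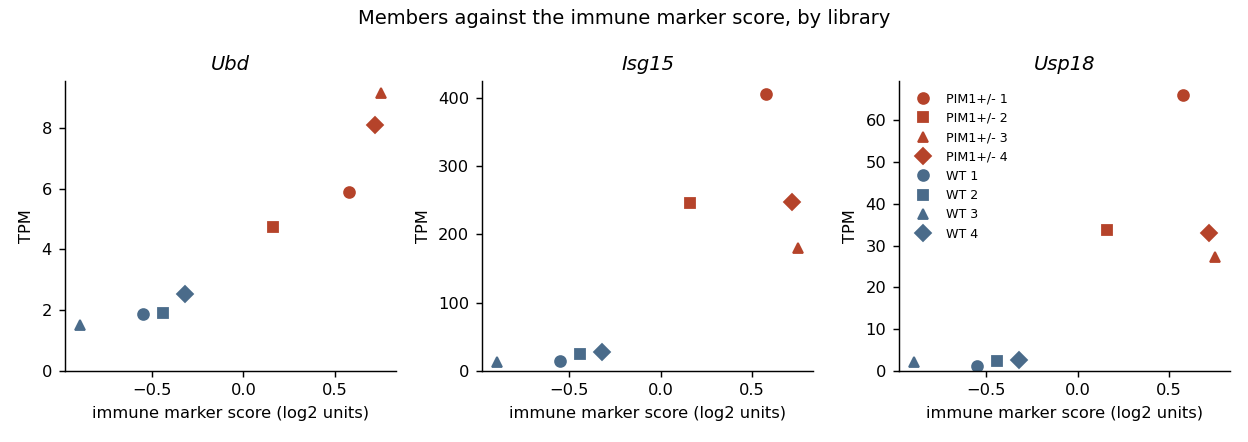
TPM of members in each library against the immune marker score of that library (mean centred log2 level of 13 markers); points are libraries, PIM1+/- and WT in different colours. The PIM1+/- libraries lie between 0.160 and 0.752 on the score and the WT libraries between -0.893 and -0.320.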

How the data were processed

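TRIzol-extracted RNA of colon epithelial cells was sequenced (Illumina NovaSeq, per the design text). The authors deposited TPM per gene in 1 table, quantified with RSEM per the design text. HISAT2, StringTie, edgeR and GRCm38.p6 also appear in the submitters' processing notes. No source used here gives the annotation release, strand setting or depth. TPM divides by gene length and scales each library, so a change in abundant transcripts shifts all others, and reads shared by similar genes are divided by estimation.

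Log2(TPM + 1) was fitted on genotype with limma 3.58.1 in R 4.3.3 (two-sided, empirical Bayes, mean-variance trend) over genes that reached 1 TPM in 4 or more of 8 libraries. The ratios of gene pairs were tested with exact permutation (SciPy 1.17.1). The fit and the permutation test were tested on simulated data. Coordinates came from GENCODE M21 on GRCm38, which held 55141 of the 55487 gene IDs. Promoters came from RefSeq tables. Near copies were sought with BLAST+ 2.17.0 (identity of at least 90% over at least 100 bases). Figures were drawn with matplotlib 3.10.9. The members, lists, ratios and alternatives were chosen with earlier results of these data known. Named are all 7 members and genes of each list past the threshold (up to 4, otherwise the 2 highest and 2 lowest). Ube2z, Usp16, Trim25, Nub1, the genes paired in ratios and Pim1 are also named. So are the 3 genes nearest to each modifier, with predicted gene models left out. The modifier pool, the single markers, the further neighbours of Ubd, Ifng, Mocs3, Stat2 and Irf9 were named after values were seen. Some genes that this rule takes are not reported here.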

Additional observations from a re-analysis of the deposited data

Results flagged for a closer look

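Among 26 sets of 4 libraries (a member's TPM or a ratio in 1 genotype), 3 held a single library that stood far from the other 3 by Dixon's criterion, which chance meets in about 1 of 20 sets. Usp18 had 66.19 TPM in PIM1+/- replicate 1, above the other 3 PIM1+/- libraries at 27.2 to 33.6 TPM. Uba6 had 3.63 TPM in PIM1+/- replicate 2, below the others at 4.43 to 4.51 TPM. The log2 ratio of Isg15 to Usp18 was 2.13 in WT replicate 3, below the others at 2.86 to 2.98. The causes were not tested.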

How the results depend on the processing

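All 6 higher members stayed called when each library in turn was left out, with log2 fold changes of 3.50 to 3.90 (Isg15), 3.44 to 3.86 (Usp18), 0.91 to 1.15 (Uba7), 1.86 to 2.04 (Ube2l6), 1.71 to 1.99 (Herc6) and 1.28 to 1.55 (Ubd). They were also called under a fit without the trend, upper quartile scaling, rescaling without mitochondrial genes, no filter and a pseudocount of 0.1, with a largest limma adjusted p of 0.0271 (Uba7, no filter). With a mean of at least 5 TPM required, 5 were called, since Ubd and Uba6 were then not tested. With the immune score in the fit 0 members, 0 genes higher, 0 genes lower and 0 other conjugation genes in either direction were called, and the members had 2.98 (Isg15), 3.68 (Usp18), 1.61 (Ube2l6), 1.97 (Herc6), 0.66 (Uba7) and 0.26 (Ubd). Of all genes, 1139 were higher and 1090 lower. The split was 893 and 1540 after upper quartile scaling and 856 and 1564 without mitochondrial genes (median log2 fold change -0.05 and -0.07), and 666 were lower with no filter. Leaving out 1 library gave 744 to 1009 higher and 602 to 1041 lower. Counts fell by more than 1.5 times without WT replicate 4 (744 higher, 672 lower), WT replicate 1 (602 lower) and WT replicate 3 (679 lower). Of the other conjugation genes, 3 were higher under either rescaling, and 2 to 5 higher and 5 to 8 lower with 1 library left out. The replicate numbers did not pair the libraries (correlation of same-numbered deviations -0.14 to 0.03, and 0 of 8 libraries correlated best with its own number). With the number as a replicate block, 760 genes were higher and 689 lower, 2 other conjugation genes were higher, and 6 members remained called. The 5 ratios that differed lost their calls with the replicate block (an exact sign-flip test over 4 pairs, p = 0.125, the smallest it allows, 0.15 adjusted over the 6), with unchanged differences of 2.69 (Isg15 over Uba7), 1.38 (Ubd over Uba6), 1.0 (Uba7 over Uba6), 1.83 (Ube2l6 over Ube2l3) and 1.75 (Herc6 over Herc4). With 1 library left out these ran from 2.56 to 2.81, 1.24 to 1.5, 0.82 to 1.15, 1.75 to 1.89 and 1.64 to 1.92, and the exact permutation p was 0.0571 (0.0686 adjusted). Among named genes, Uba1, Ube2m, Gabarapl1 and Ifngr1 lost their calls without the trend (limma adjusted p = 0.0787, 0.0513, 0.0581 and 0.0687), and Ube2m, Gabarapl1 and Tnf with no filter (0.0636, 0.0968 and 0.0547). Under the replicate block, Nub1, Psmd4, Otub1, Uba1, Ube2m, Gabarapl1 and Ifngr1 did (0.0540 to 0.0904). Depth is unknown, so counting error could not be separated from the spread.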
